A study of Mus musculus with 24 samples.

Results

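Nucb2, Itm2c and Tmem39a are 3 of the 23991 gene symbols measured in mouse bone marrow progenitors. They encode membrane or secretory pathway proteins that do not themselves fold proteins in the endoplasmic reticulum (ER), and they were chosen because their level was lower in granulocyte-macrophage progenitors (GMP) that carry the Ern1 deletion label. The difference between labelled and unlabelled GMP is therefore how the genes were found, and it is described below without a test. All 3 genes passed the filter on low values in every fit.

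The study measured RNA in 24 libraries from C57BL/6 mice, 3 for each of 8 groups. The sorted populations were LSK (lineage-negative, Sca1-positive, cKit-positive cells, which hold stem cells and multipotent progenitors) and GMP, the myeloid progenitors of granulocytes and macrophages. Each came from 4 genotypes. WT is labelled wild type, with no word on floxed Ern1 or Cre in it, and ITD carried the internal tandem duplication of the Flt3 receptor, an activating change also found in acute myeloid leukemia. IRE1_KO was Ern1(fl/fl)-VavCre, and IRE1_KO_ITD was Ern1(fl/fl)-VavCre with Flt3-ITD. Vav-Cre is active throughout the blood lineage, so the label is not specific to LSK or GMP. The labels give neither the age of the mice nor whether the 3 libraries of a group came from separate animals, so p-values below measure the spread between libraries.

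Ern1 encodes IRE1, a kinase and endoribonuclease in the ER membrane that senses unfolded protein. Its RNase removes a short intron from Xbp1 mRNA, and the resulting transcription factor XBP1 switches on genes of protein translocation, folding, glycosylation and vesicle export. IRE1 can also cleave other mRNAs at the ER membrane, a process called regulated IRE1-dependent decay. Nucb2 encodes nucleobindin 2, an EF-hand calcium-binding protein of the Golgi and secretory pathway and the precursor of the peptide nesfatin. Itm2c encodes BRI3, a membrane protein with a BRICHOS domain that is cleaved by furin-like proteases and binds the amyloid precursor protein. Tmem39a encodes a multi-pass ER membrane protein reported to help load the lipid phosphatase SAC1 into COPII vesicles, and thereby to affect autophagy.

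The bases before the annotated starts are shown because XBP1 binds motifs built on an ACGT core, so the promoters of genes that move with an Ern1 label are where such letters would be looked for. The sequences are from RefSeq on GRCm38.p6, the mm10 build, all on the plus strand and written 5′ to 3′. Capitals mark the short XBP1 core CCACGT, the cAMP response element TGACGTCA, the CCAAT box, or the bare core where it stands outside these.

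Nucb2, before the start, chr7:116504119-116504351: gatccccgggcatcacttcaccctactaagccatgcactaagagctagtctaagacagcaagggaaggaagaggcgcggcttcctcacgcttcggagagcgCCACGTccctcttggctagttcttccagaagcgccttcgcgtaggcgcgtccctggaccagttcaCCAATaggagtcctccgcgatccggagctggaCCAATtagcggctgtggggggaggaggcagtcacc
Tmem39a, before its second annotated start, chr16:38562564-38562811: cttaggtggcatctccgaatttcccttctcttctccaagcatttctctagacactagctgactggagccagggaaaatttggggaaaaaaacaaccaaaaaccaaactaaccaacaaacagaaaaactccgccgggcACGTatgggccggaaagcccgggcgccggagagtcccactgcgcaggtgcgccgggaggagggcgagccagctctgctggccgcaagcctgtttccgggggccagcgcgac
Tmem39a, first exon after that start, chr16:38562819-38562845: TGACGTCAtcgctgtgcgctgCCACGT
Itm2c, before its RefSeq start, chr1:85894321-85894337: ACGTtgccaggcaACGT

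In windows of 300 bases, 250 before and 50 after each start, Nucb2 held CCACGT 149 bases before its start and CCAAT 84 and 52 bases before it. Tmem39a held TGACGTCA and CCACGT within the first 50 transcribed bases of its second start. The window of its first annotated start, chr16:38558698, held none of the ACGT motifs and only a CCAAT 40 bases after that start. Itm2c held ACGT 189 and 176 bases before its start, in what GENCODE annotates as the first exon of a transcript that starts further upstream, and none of the longer motifs. Both strands were searched, and CCACGT and TGACGTCA each contain ACGT. The short core CCACGT was found in 8.31% of all 32851 windows and in 35.5% of the 76 windows of a list of XBP1 and ER secretory genes described below, which had windows for 66 of its genes. The core was not particular to that list. Among the other lists below, it was in 47.8% of the windows for Tmem39a trafficking partners and 26.3% each for calcium handling and BRI processing. It was in 24% for IRE1-dependent decay targets and 8.33% for ATF4 and PERK targets. TGACGTCA was found in 1.79% of all windows, CCAAT in 37.4% and ACGT in 30.9%. None of the 3 genes held the longer XBP1 site CCACGTCA (0.676% of all windows) or the ER stress element, CCAAT and CCACG 9 bases apart (0.119%). These matches describe the letters only, and no binding was measured here.

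In GENCODE M21 (mm10), Nucb2 spans chr7:116504369-116540584 with up to 14 exons, Itm2c chr1:85894281-85908675 with up to 6 and Tmem39a chr16:38558698-38592162 with up to 9. No other annotated gene overlaps any of them, so their values do not mix with those of an overlapping gene.

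The sorted populations showed their defining markers. All 9 LSK markers on the list used reached 1 FPKM (fragments per kilobase of transcript, scaled to the mapped fragments of the library) in every LSK group, and all 10 GMP markers did in every GMP group and also in every LSK group, summing there to 1448 to 3918 FPKM. In WT, Ly6a averaged 197 FPKM in LSK and 21.8 in GMP, and Mpo 867 and 9718. The read depth is unknown, though steps between low values put the libraries within 0.920 to 1.28 times the depth of the first WT LSK library. Ern1 itself was higher, not lower, in the libraries labelled IRE1_KO: 17.9 to 24.5 FPKM in IRE1_KO GMP against 7.58 to 10.4 in WT GMP, and 6.64 to 8.71 in IRE1_KO LSK against 3.73 to 4.74 in WT LSK. Because a whole-gene value cannot show the floxed exons, the deletion is taken from the labels throughout. A 1ng tag stands in the headers of all 3 IRE1_KO LSK libraries and of no other, so tag and genotype cannot be told apart there. The same libraries had 0.175 to 0.904% of their FPKM in Mir6236, against 2.72 to 6.61% in the 21 others.

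Nucb2 was a GMP gene that stood lower with either allele and lowest with both. Its level was 48.7, 49.8 and 55.2 FPKM in WT GMP, 17.6, 14.1 and 19.9 in IRE1_KO GMP, 19.7, 27.7 and 27.2 in ITD GMP, and 5.18, 4.21 and 5.41 in IRE1_KO_ITD GMP. In LSK it was 6.89, 4.99 and 4.29 in WT, 4.72, 4.78 and 4.29 in IRE1_KO, 2.72, 6.97 and 5.68 in ITD, and 1.10, 0.890 and 0.823 in IRE1_KO_ITD. The WT GMP libraries lay above all others, and the IRE1_KO_ITD LSK libraries below all others. The order of group means was WT GMP, ITD GMP, IRE1_KO GMP, WT LSK, ITD LSK, IRE1_KO_ITD GMP, IRE1_KO LSK and IRE1_KO_ITD LSK. Ranges overlapped between ITD and IRE1_KO GMP, where the lowest ITD library was at 19.7 FPKM and the highest IRE1_KO library at 19.9. They also overlapped along the run from WT LSK to IRE1_KO LSK. Overlap of ranges is a description and no test of a difference.

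Itm2c was the most abundant of the 3 per length of transcript and the only one with a higher group mean in ITD than in WT GMP. It was at 63.0, 66.4 and 68.0 FPKM in WT GMP, 102, 84.5 and 102 in ITD GMP, 35.2, 39.3 and 31.3 in IRE1_KO GMP, and 48.3, 43.0 and 36.9 in IRE1_KO_ITD GMP. In LSK it was 33.4, 33.5 and 41.4 in WT, 34.0, 51.0 and 51.9 in ITD, 34.1, 40.3 and 43.5 in IRE1_KO, and 34.0, 36.7 and 32.6 in IRE1_KO_ITD. ITD GMP stood above WT GMP without overlap, and WT GMP above the other 6 groups. From ITD LSK, next in order, down to IRE1_KO_ITD LSK each group overlapped the next.

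Tmem39a had the narrowest range. It was at 23.1, 21.7 and 22.8 FPKM in WT GMP, 21.2, 15.8 and 19.9 in ITD GMP, 11.1, 10.9 and 10.2 in IRE1_KO GMP, and 10.9, 10.1 and 10.8 in IRE1_KO_ITD GMP. In LSK it was 13.6, 11.5 and 11.96 in WT, 14.8, 14.6 and 14.1 in ITD, 10.6, 9.13 and 11.3 in IRE1_KO, and 11.2, 9.64 and 10.1 in IRE1_KO_ITD. All 12 labelled libraries of both populations lay between 9.13 and 11.3 FPKM, and the 12 others between 11.5 and 23.1. The 4 labelled groups were close to each other in level, with means from 10.3 to 10.7, while the 4 unlabelled groups were ordered WT GMP, ITD GMP, ITD LSK and WT LSK with no overlap. That the labelled and unlabelled libraries separate for this gene was known when the 3 genes were chosen, and the share of all genes that separate so was not counted.

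**Figure D1:**
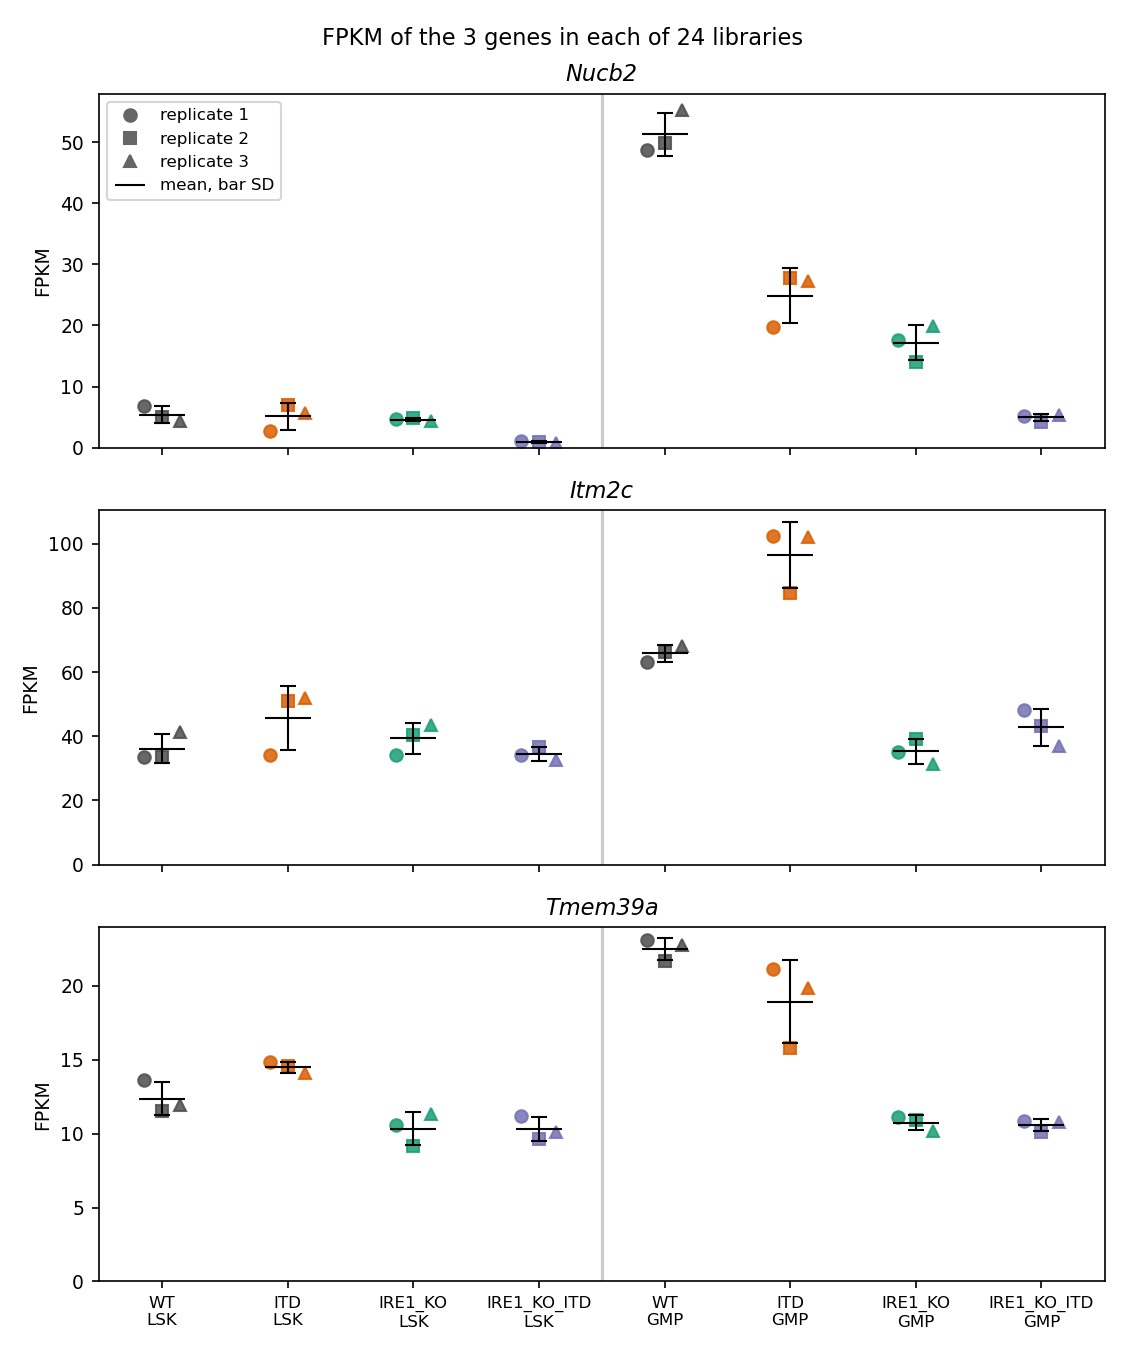
FPKM (vertical axis, linear, from 0) of Nucb2, Itm2c and Tmem39a in each of 24 libraries by group; symbols are replicates, horizontal lines group means and bars the SD (n = 3). Nucb2 falls to 4.21 to 5.41 in IRE1_KO_ITD GMP from 48.7 to 55.2 in WT GMP, and all labelled Tmem39a libraries lie at or below 11.3.

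In GMP, the contrast that chose the genes, the mean of Nucb2 in IRE1_KO was 33.5% of that in WT, and in IRE1_KO_ITD 19.8% of that in ITD. Itm2c stood at 53.5% and 44.4%, and Tmem39a at 47.7% and 56.0%. On the log2(FPKM + 1) scale, the differences from WT were -1.53 for Nucb2, -0.89 for Itm2c and -1.003 for Tmem39a, and those from ITD were -2.11, -1.16 and -0.77. The labelled and unlabelled groups did not overlap for any of the 3 genes in either contrast. The share of all genes without overlap was not counted, so this only describes the chosen genes. Among all 11249 genes tested in GMP, 0.533% were called between IRE1_KO and WT (0.507% lower and 0.0267% higher) and 1.83% between IRE1_KO_ITD and ITD (0.916% in each direction). Of these 11249 genes, 74 had a lower difference than Nucb2 in the first contrast, 112 than Tmem39a and 128 than Itm2c, and in the second 59, 315 and 171. In bulk RNA, fewer cells that express a gene and less RNA per cell cannot be told apart. Monocyte and conventional dendritic markers, 13 in all, summed to 491 to 560 FPKM in WT GMP and 501 to 642 in IRE1_KO GMP, but to 1958 to 3155 in ITD GMP and 572 to 1120 in IRE1_KO_ITD GMP. In ITD GMP most of this sum lay in Cd74, H2-Aa and H2-Ab1, at 854, 316 and 477 FPKM on average. In IRE1_KO_ITD GMP these were at 74.4, 29.2 and 52.6. F13a1 was level (170 in both), Irf8 (277 and 243) and Csf1r (64.6 and 51.2) fell less, and Flt3 alone was higher (20.3 and 24.7). The part of these markers in the ITD values was not tested.

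The rule for choosing the genes named GMP values, and the LSK values of these data were known as well. With ITD, the labelled LSK libraries had lower Nucb2 and Tmem39a than the unlabelled ones. Nucb2 was 5.12 ± 2.18 FPKM (SD, n = 3) in ITD LSK and 0.936 ± 0.142 in IRE1_KO_ITD LSK, 18.3% of it, a log2 difference of -1.59 ± 0.25 (SE; limma, adjusted p = 0.00275). Every IRE1_KO_ITD library lay below every ITD library. Tmem39a was 14.5 ± 0.377 and 10.3 ± 0.787 FPKM, a difference of -0.46 ± 0.10, also without overlap, given with no test because this separation was known at the choice. Itm2c, at 45.6 ± 10.1 and 34.5 ± 2.10 FPKM, did not pass, with a difference of -0.37 ± 0.16 (95% interval -0.73 to -0.02 before adjustment; limma, adjusted p = 0.129), and its groups overlapped. Of the 11955 genes tested in LSK, 20.2% were called in this contrast, 6.96% lower and 13.3% higher. The libraries with the 1ng tag are in neither of these groups and enter only through the shared estimate of spread.

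The Itm2c result rested on ITD LSK replicate 1, whose 34.0 FPKM was at the level of the IRE1_KO_ITD libraries. Without that library the difference was -0.57 (limma, adjusted p = 0.0118; 0.0118 to 0.354 over the 6 libraries left out in turn). The same library had the lowest Nucb2 of the ITD LSK group. It also differed in markers of other cells: the 13 monocyte and conventional dendritic markers summed to 619 FPKM in it and to 2944 and 3914 in the other ITD LSK libraries, against 186 to 273 in IRE1_KO_ITD LSK and 327 to 483 in WT LSK. The 11 plasmacytoid dendritic markers summed to 150 FPKM in that library, 306 and 268 in the other ITD LSK libraries and 101 to 115 in IRE1_KO_ITD LSK, where Siglech and Klk1 were listed at 0. The 10 late neutrophil markers summed to 477 to 2412 FPKM in ITD LSK and 115 to 395 in IRE1_KO_ITD LSK. These markers move with the Ern1 contrast in ITD LSK, and their part in the lower Nucb2 and Tmem39a was not tested. Tmem39a did not stand low in ITD LSK replicate 1.

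Without ITD, neither Nucb2 nor Itm2c passed between IRE1_KO and WT LSK, where 23.7% of genes were called, 2.72% lower and 21% higher. Nucb2 differed by -0.17 ± 0.25 (95% interval -0.72 to 0.37; limma, adjusted p = 0.680), and Itm2c by 0.12 ± 0.16 (-0.23 to 0.47; 0.657). Tmem39a differed by -0.24 ± 0.10, again with no test. The Nucb2 and Itm2c ranges overlapped, while the 3 Tmem39a values in IRE1_KO lay below the 3 in WT. The median of all genes was 0.14 above 0 in this contrast, so the scaling matters here. With a median-ratio size factor or quantile normalization Tmem39a was at -0.40 and -0.55, and Itm2c changed sign to -0.05 and -0.13.

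Averaged over both backgrounds in LSK, Nucb2 was lower with the label by -0.88 ± 0.17 (limma, adjusted p = 0.00290), and Itm2c at -0.13 ± 0.11 did not pass (0.438). Tmem39a differed by -0.35 ± 0.07, with no test. In this average 31.1% of genes were called, 6.33% lower and 24.8% higher. It includes the IRE1_KO libraries with the 1ng tag, where tag and genotype cannot be told apart. For Nucb2 it joins -0.17 without ITD and -1.59 with it. The label effect on Nucb2 differed between the ITD and the non-ITD background, by -1.42 ± 0.35 (limma, adjusted p = 0.0364), in an interaction where 6.94% of genes were called, 5.58% lower and 1.36% higher. This call was lost under 5 of 6 other settings (adjusted p 0.0231 to 0.176) and without any 1 of 9 libraries of the 12 (0.00155 to 0.0931 over all 12). The interaction was -0.49 ± 0.23 for Itm2c (0.203) and -0.22 ± 0.14 for Tmem39a (0.374), neither of which passed.

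**Figure D2:**
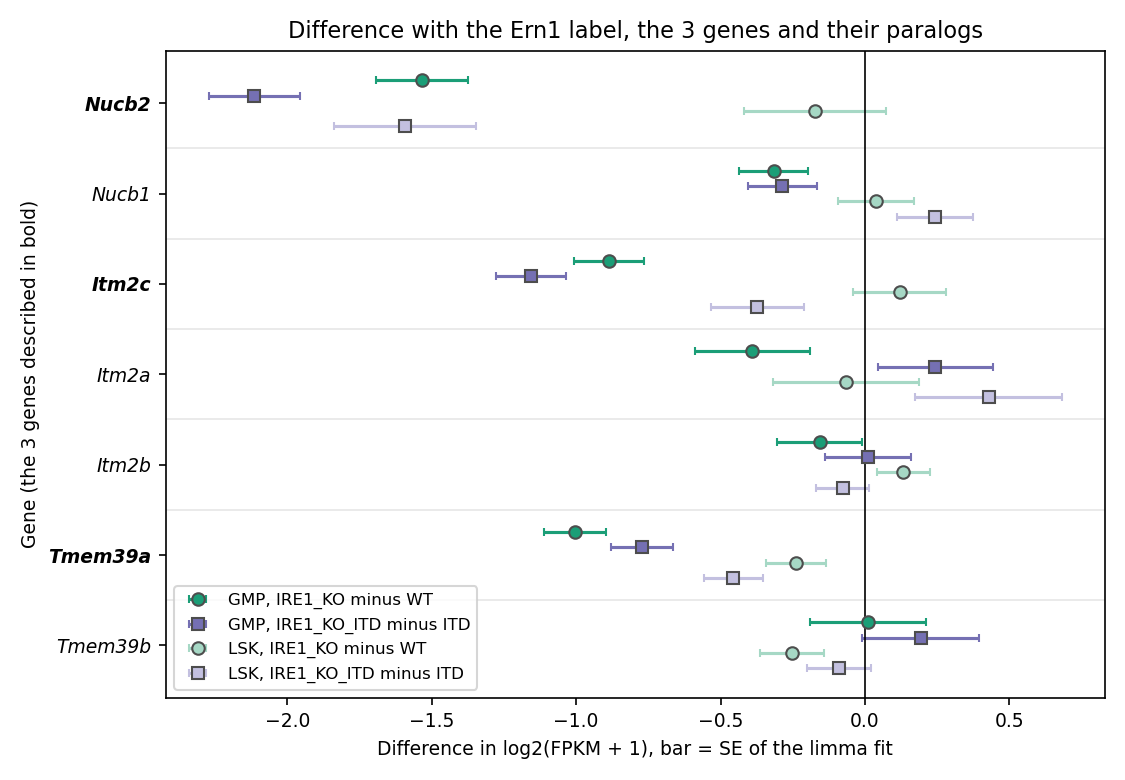
Difference in log2(FPKM + 1) with the Ern1 label (horizontal axis) for the 3 genes, in bold, and their 4 paralogs, in GMP and LSK with and without ITD; bars are the SE of the limma fit (3 libraries a group). The GMP values of the 3 genes are those they were chosen on. Nucb2 lies at -1.59 in ITD LSK and -0.17 in non-ITD LSK, and no paralog lies below -0.39.

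With the receptor allele Flt3-ITD alone, Nucb2 fell and Itm2c rose in GMP. The unlabelled GMP libraries compared here are those that served as references in the choice of the genes, so the p-values are not independent of that choice. Nucb2 fell from 51.3 ± 3.47 to 24.9 ± 4.53 FPKM, a difference of -1.03 ± 0.16 (limma, adjusted p = 0.00381). Itm2c rose from 65.8 ± 2.55 to 96.3 ± 10.3 FPKM, by 0.54 ± 0.12 (0.0206). Tmem39a, at 22.5 ± 0.750 and 18.9 ± 2.82 FPKM, did not pass at -0.25 ± 0.11 (0.153), although its groups did not overlap. Of all genes tested, 10.7% were called, 3.32% lower and 7.37% higher. The Itm2c call was lost without any of 5 of the 6 libraries (WT GMP replicates 1, 2 and 3 and ITD GMP replicates 1 and 3; limma, adjusted p 0.0527 to 0.0696) and with sex as a covariate, where the difference was 0.55 (0.0931). All 3 ITD GMP libraries read as female by Xist and Y-linked RNA, and 1 of the 3 WT GMP libraries did.

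Between IRE1_KO and IRE1_KO_ITD GMP, Nucb2 fell by a further 1.61 ± 0.16 on the log2 scale, to 28.7% of its level (limma, adjusted p = 0.000291), where 13% of genes were called, 4.5% lower and 8.47% higher. The choice of the genes used these labelled GMP libraries too, so the p-values here are not independent of it. Itm2c at 0.27 ± 0.12 (0.173) and Tmem39a at -0.02 ± 0.11 (0.948) did not pass, and their groups overlapped. With both alleles the mean of Nucb2 in GMP was 9.63% of the WT mean. ITD GMP had higher monocyte and conventional dendritic marker sums than WT GMP, as given above, and lower sums of the 10 basophil, mast cell and eosinophil markers (118 to 525 against 875 to 2036 FPKM). The 10 GMP markers themselves summed to 19070 to 22770 FPKM in ITD GMP against 30340 to 31830 in WT GMP, the 8 T and NK cell markers to 450 to 655 against 1112 to 1304, the 10 B cell markers to 49.3 to 57.7 against 87.9 to 290, and the 8 plasma cell markers to 3.17 to 3.55 against 7.76 to 38.2. Nearly all of the T and NK cell sum was Nkg7, at 556 in ITD and 1203 in WT GMP. Of those 8 markers, 2 reached 1 FPKM in ITD GMP and 3 in WT GMP, so the sum describes Nkg7 more than T or NK cells. Marker sums also differed between IRE1_KO_ITD and IRE1_KO GMP, given in that order. Late neutrophil sums were 1495 to 15100 against 17610 to 85020 FPKM, and B cell sums 43.8 to 45.2 against 96.5 to 352. Basophil, mast cell and eosinophil sums were 172 to 251 against 469 to 1248. LSK marker sums were higher, at 252 to 296 against 164 to 222. Monocyte and conventional dendritic sums overlapped, at 572 to 1120 against 501 to 642. The part of these marker lists in the ITD differences was not tested.

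In LSK, none of the 3 genes passed between ITD and WT, where 22.2% of genes were called, 7.27% lower and 14.9% higher. Nucb2 differed by -0.11 ± 0.25 (limma, adjusted p = 0.771), Itm2c by 0.31 ± 0.16 (0.187) and Tmem39a by 0.22 ± 0.10 (0.154). Without ITD LSK replicate 1, Itm2c passed at 0.51 (limma, adjusted p = 0.0195; 0.0195 to 0.452 over the 6 libraries) and Nucb2 changed sign to 0.21. Among labelled LSK libraries Nucb2 was lower in IRE1_KO_ITD than in IRE1_KO by -1.53 ± 0.25 (limma, adjusted p = 0.000943), where 31.3% of genes were called, 19.6% lower and 11.7% higher. Here too the tag on the IRE1_KO libraries and the genotype cannot be told apart. Marker sums were also lower in IRE1_KO_ITD than in IRE1_KO LSK: late neutrophil 115 to 395 against 4695 to 11720 FPKM, B cell 30.7 to 36.6 against 229 to 281, plasmacytoid dendritic 101 to 115 against 295 to 311, and monocyte and conventional dendritic 186 to 273 against 501 to 658. Pax5 was listed at 0 in IRE1_KO_ITD LSK. Their part in the lower Nucb2 was not tested. Itm2c (-0.18 ± 0.16; 0.427) and Tmem39a (-0.00165 ± 0.10; 0.993) did not pass.

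The ITD effect itself was compared between the populations, with the same unlabelled GMP libraries. For Tmem39a it was lower in GMP than in LSK by -0.46 ± 0.14 (limma, adjusted p = 0.0350), with means of 12.4 FPKM in WT and 14.5 in ITD LSK, and 22.5 and 18.9 in GMP. In this test 13.6% of genes were called, 7.1% lower and 6.45% higher. The call was lost without any 1 of 9 of the 12 libraries (adjusted p 0.0161 to 0.0953 over all 12). Nucb2 at -0.92 ± 0.30 lay just outside the threshold (0.0518) and passed without WT LSK replicate 1 (-1.08, 0.0322) or ITD LSK replicate 1 (-1.24, 0.00419). Itm2c did not pass (0.23 ± 0.21; 0.488; 95% interval -0.21 to 0.66).

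**Figure D3:**
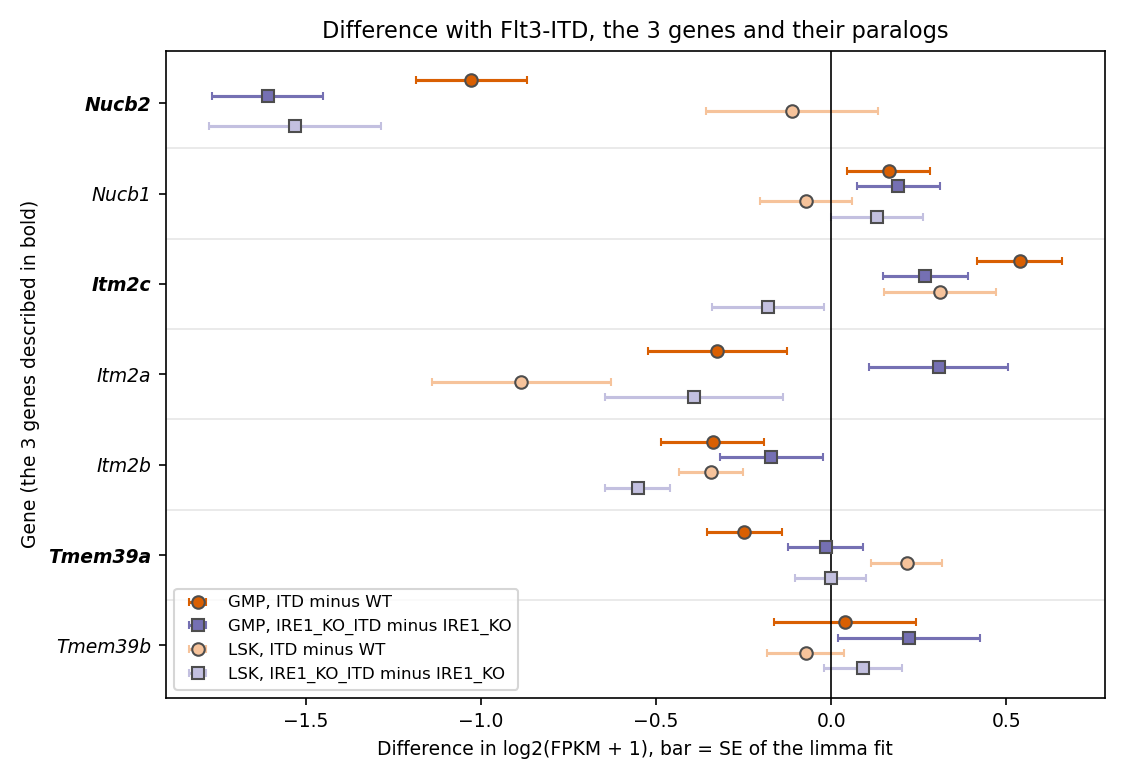
Difference in log2(FPKM + 1) with Flt3-ITD (horizontal axis) for the 3 genes, in bold, and their 4 paralogs, in GMP and LSK with and without the Ern1 label; bars are the SE of the limma fit (3 libraries a group). In GMP without the label Nucb2 lies at -1.03 and Itm2c at 0.54.

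The level of each of the 3 genes was above that of WT LSK in every WT GMP library. The choice of the genes used the WT GMP libraries, so these differences are a description with no test. Nucb2 averaged 51.3 FPKM in GMP and 5.39 in LSK, 9.51 times as much (log2 difference 3.05 ± 0.21). Itm2c was 1.82 times as high (0.85 ± 0.15) and so was Tmem39a (0.82 ± 0.10). Of 12348 genes tested over both populations, 50.3% were called, 19% higher and 31.3% lower in GMP. In the labelled groups the means of Tmem39a in GMP were 1.04 and 1.03 times those in LSK, with overlap, and those of Itm2c 0.896 and 1.24 times, the second without overlap. Nucb2 was 3.74 and 5.27 times as high in labelled GMP as in labelled LSK. These ratios were not tested either.

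The closest relatives of the 3 genes gave no call with the Ern1 label. In GMP only 0.533% (without ITD) and 1.83% (with ITD) of all genes were called, so no call does not mean no change. Nucb1 encodes nucleobindin 1, the Golgi calcium-binding paralog, and was at 130 ± 9.22 FPKM in WT GMP and 105 ± 7.14 in IRE1_KO GMP (-0.32 ± 0.12; limma, adjusted p = 0.358). Its promoter window holds the ER stress element II (ATTGG and CCACG 1 base apart, found in 0.0365% of windows), 41 bases before its start. Itm2a and Itm2b, the other BRI family members, and Tmem39b differed in GMP by -0.39, -0.16 and 0.01 without ITD and by 0.24, 0.01 and 0.19 with it. None of the 4 paralogs passed in any of the 4 Ern1 comparisons, and the difference between a gene and its paralog was not tested. Without ITD LSK replicate 1, Itm2a passed in IRE1_KO_ITD against ITD LSK, at 0.72 in place of 0.43 (limma, adjusted p = 0.0411; 0.0411 to 0.648 over the 6 libraries left out). With ITD, Itm2b fell in LSK by 0.34 ± 0.09 on the log2 scale (0.0240) and Itm2a by 0.88 ± 0.25 (0.0308), opposite in sign to the Itm2c difference there, which did not pass. Between WT GMP and WT LSK, Itm2a was lower in GMP by -2.82 ± 0.24 (1.71e-08) and Tmem39b by -0.88 ± 0.17 (0.000234), Itm2b was higher by 0.50 ± 0.12 (0.00235) and Nucb1 did not pass (0.160).

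The nearest coding genes on the chromosome were examined as well. Pik3c2a and Xylt1 flank Nucb2, Cab39 and Gpr55 flank Itm2c, and Poglut1 and Arhgap31 flank Tmem39a. Of the 5 that were tested (Gpr55 averaged at most 0.206 FPKM in any group and was not), none passed in the GMP Ern1 comparisons, with differences from -0.27 to 0.38. In those comparisons 0.533% (without ITD) and 1.83% (with ITD) of all genes were called. In LSK, Xylt1 (1.14 ± 0.17; limma, adjusted p = 0.000485) and Cab39 (1.73 ± 0.18; 4.35e-05) rose in IRE1_KO over WT, the contrast with the 1ng tag, and none passed in IRE1_KO_ITD against ITD.

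Xbp1, the mRNA that IRE1 splices, did not pass in GMP, with a difference of 0.35 ± 0.18 without ITD (limma, adjusted p = 0.455) and 0.65 ± 0.18 with it (0.0958), though it passed with ITD when ITD GMP replicate 1 was left out (0.0250). It rose in LSK by 0.83 ± 0.19 (0.00885) and 1.47 ± 0.19 (0.00172). The files do not separate spliced from unspliced Xbp1.

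The list of XBP1 and ER secretory genes (translocon, signal peptidase, chaperones, disulfide isomerases, glycosylation, degradation and COPI or COPII vesicles) had 80 tested members. The list was written with earlier results of these data known. In IRE1_KO against WT GMP, where 0.507% of all genes were called lower and 0.0267% higher, 27 of 80 members were lower and 0 higher. Their median log2 difference was -0.49 against 0.08 over all genes. Without WT GMP replicate 3 the count was 16 and without IRE1_KO GMP replicate 3 it was 17, within 16 to 22 over the 6 libraries. The lower genes included Sec61b, a translocon subunit (-1.47 ± 0.10; limma, adjusted p = 0.000198), P4hb, the protein disulfide isomerase (-1.15 ± 0.11; 0.000818), and Spcs2 of the signal peptidase (-1.03 ± 0.09; 0.000818). In IRE1_KO_ITD against ITD GMP, where 0.916% of all genes were called in each direction, 24 members were lower and 0 higher. The median was -0.44 against 0.07, and the lower genes were led by Sec24d, a COPII cargo adaptor (-3.17 ± 0.30, limma adjusted p = 0.00142). This second count was 4 without ITD GMP replicate 3, 7 without IRE1_KO_ITD GMP replicate 1, 14 and 15 without IRE1_KO_ITD GMP replicates 2 and 3, 4 with sex as a covariate and 2 in a fit of these 6 libraries alone. Set among those 80 genes in GMP, Nucb2 was lower than all but 3 of them without ITD and all but 1 with it, Itm2c lower than all but 16 and 2, and Tmem39a lower than all but 12 and 13. The 3 genes were chosen on these GMP differences, so their low place among the list follows from the choice and is only a description.

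In LSK the list leaned lower with ITD, as it did in GMP, while no direction could be read without ITD. In IRE1_KO against WT LSK, 16 members were higher and 3 lower, with a median of 0.12 against 0.14 over all genes, of which 21% were called higher. Leaving out each library gave 8 to 17 higher (8 without WT LSK replicate 2, 9 without IRE1_KO LSK replicate 2) and 0 to 3 lower. After median-ratio scaling the split became 7 and 9, and after quantile normalization 7 and 10, so no direction can be read from it. Higher members included Tmed2, a cargo receptor of the early secretory pathway (1.75 ± 0.20; limma, adjusted p = 9.84e-05), Txndc5, a disulfide isomerase (1.72 ± 0.19; 6.19e-05), and Sec63, a translocon partner (1.38 ± 0.13; 3.01e-05). In IRE1_KO_ITD against ITD LSK, where 6.96% of all genes were called lower and 13.3% higher, 16 members were lower and 2 higher. The median was -0.21 against 0.06. The lower genes included Sec61b (-0.95 ± 0.10; limma, adjusted p = 0.000999), Sec61g (-0.93 ± 0.12; 0.00174) and P4hb (-0.48 ± 0.07; 0.00217). Leaving out each of these 6 libraries in turn gave 8 to 13 lower, with 8 without IRE1_KO_ITD LSK replicate 3 and 10 without ITD LSK replicate 3 or IRE1_KO_ITD LSK replicate 1. In that contrast Nucb2 was lower than all list members but 1 (Fkbp11, -1.69), Tmem39a than all but 11 and Itm2c than all but 17. The LSK values were known at the choice of the genes, so these places are a description too.

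**Figure D4:**
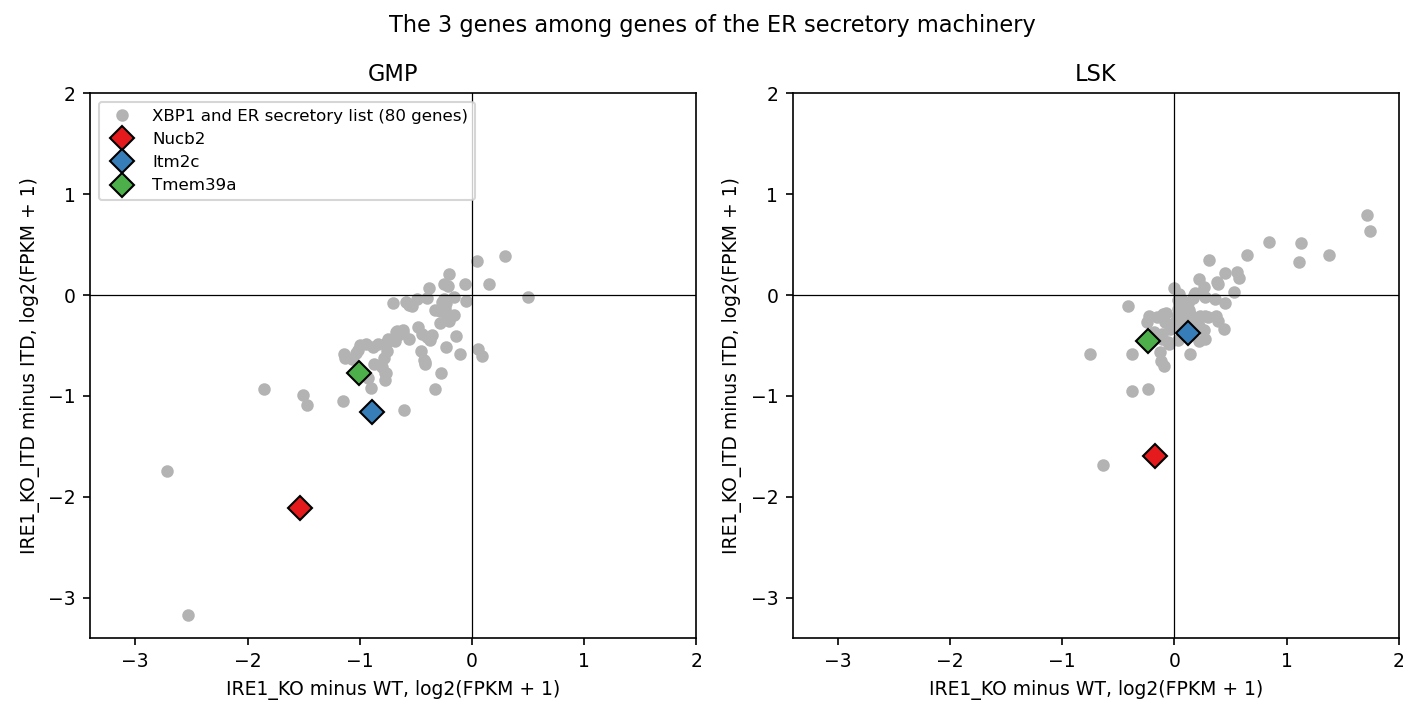
Difference in log2(FPKM + 1) without ITD (horizontal axis, IRE1_KO minus WT) against that with ITD (vertical axis, IRE1_KO_ITD minus ITD) for 80 XBP1 and ER secretory genes (grey) and the 3 genes (diamonds), in GMP (left) and LSK (right). In GMP Nucb2 is at -1.53 and -2.11; in LSK it is at -0.17 and -1.59, while the list has a median of 0.12 and -0.21.

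Lists built around the known roles of the 3 proteins gave 0 to 2 calls in each GMP contrast. Over all genes 0.533% were called there without ITD and 1.83% with it, 0.916% in each direction. At these shares, 0 calls in a list of this size say nothing about the list. Of 18 tested genes of Golgi and ER calcium handling, the setting of Nucb2, 0 passed in either GMP contrast, and 7 were higher and 0 lower in each LSK contrast, where 21% (without ITD) and 13.3% (with ITD) of all genes were called higher. They included Tmem165, a Golgi ion transporter (2.83 ± 0.24 without ITD; limma, adjusted p = 1.75e-05), the ER calcium-binding protein Rcn1 (1.58 ± 0.15 and 1.11 ± 0.15; 3.25e-05 and 0.00190) and the Golgi calcium pump Atp2c1 (1.14 ± 0.13 and 0.99 ± 0.13; 9.02e-05 and 0.00174). Of 16 genes of BRI protein processing and APP, the setting of Itm2c, 0 passed in GMP without ITD and 2 were higher with it, the protease Adam10 (0.42 ± 0.08; 0.0291) and the APP relative Aplp2 (0.39 ± 0.09; 0.0497), both lost without any of 5 libraries. In LSK, 1 rose without ITD, Aplp2 (0.49 ± 0.12; 0.0128), and with ITD 1 rose, the protease Furin (0.49 ± 0.12; 0.0183), and 1 fell, the APP protease Bace1 (-0.60 ± 0.18; 0.0380). The Aplp2 call in LSK was lost without WT LSK replicate 2 or IRE1_KO LSK replicate 3, and the Furin and Bace1 calls without any of 4 of the 6 libraries (ITD LSK and IRE1_KO_ITD LSK replicates 2 and 3). Bace1 also missed the threshold without the libraries with the 1ng tag (0.0513).

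Of 22 genes of COPII coat, SAC1 and autophagy lipid control, the setting of Tmem39a, 2 were lower in GMP without ITD, Sec24d (-2.53 ± 0.30; limma, adjusted p = 0.00312) and Sec23b (-0.48 ± 0.08; 0.0248, lost without any 1 of the 6 libraries), and 1 with ITD, Sec24d again. Both genes are also on the XBP1 and ER secretory list. Over all genes 0.507% were called lower in GMP without ITD and 0.916% with it. In LSK, 6 were higher and 0 lower without ITD, led by the autophagy regulator Uvrag (1.18 ± 0.17; 0.000377), where 21% of all genes were called higher. With ITD there were 3 higher and 2 lower, among them the lipid kinase Pi4ka (0.75 ± 0.15; 0.00701) and the COPII GTPase Sar1b (-0.30 ± 0.08; 0.0225, lost without any of 5 libraries). The 6 higher became 3 without WT LSK replicate 1, WT LSK replicate 2 or IRE1_KO LSK replicate 2, and 9 without WT LSK replicate 3, and the 2 lower with ITD ranged from 0 to 2. With quantile normalization the count without ITD was 1 higher and 0 lower.

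A list of 25 transcripts reported as targets of IRE1-dependent decay had 19 tested in GMP and 20 in LSK. In GMP 0 passed without ITD, and 2 were lower with it, the glycosyltransferase Mgat2 (-0.88 ± 0.15; limma, adjusted p = 0.0204) and the ganglioside synthase St3gal5 (-1.49 ± 0.31; 0.0432). The Mgat2 call was lost without any of 3 libraries (ITD GMP replicates 2 and 3 and IRE1_KO_ITD GMP replicate 1) and the St3gal5 call without any of 5, all but ITD GMP replicate 1 (adjusted p up to 0.0715 and 0.177). Over all genes in GMP, 0.533% were called without ITD, and 0.916% were called lower with it. In LSK 21% (without ITD) and 13.3% (with ITD) of all genes were called higher. Of the list, 7 were higher and 1 lower there without ITD, and 5 higher and 2 lower with it. They included Hgsnat, a lysosomal enzyme (1.53 ± 0.22 and 1.24 ± 0.22; limma, adjusted p = 0.000351 and 0.00398), and the Fc receptor Fcgr2b (-1.37 ± 0.25 with ITD; 0.00461). Leaving out each library gave 2 to 7 higher and 1 to 4 lower with ITD, with 2 higher without IRE1_KO_ITD LSK replicate 3 and 4 lower without ITD LSK replicate 1. Of 21 targets of ATF4 and PERK, another branch of the ER stress response, tested in LSK, 4 were higher and 0 lower without ITD, among them the transcription factor Cebpb (2.19 ± 0.34; 0.000745), where 21% of all genes were called higher. With ITD 1 was higher and 2 were lower, and both lower calls were lost without any 1 of the 6 libraries. Of the 19 tested in GMP, 0 passed in either contrast, where 0.533% and 1.83% of all genes were called.

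The genes whose levels followed the 3 most closely over the 24 libraries were ranked by likeness. Likeness is Pearson's r of log2(FPKM + 1) after removing each population's mean, over 12348 genes; the libraries share genotype and depth, so r is a description and carries no p. For Tmem39a the 5 highest were P4hb (0.946), Sec61b (0.943), Cope of the COPI coat (0.932), Ostc of the oligosaccharyltransferase (0.904) and Krtcap2 (0.904). For Nucb2 they were the cargo receptor Tmed3 (0.922), the exonuclease Isg20 (0.909), Krtcap2 (0.893), Serf2 (0.860) and Cdk2ap2 (0.859). For Itm2c they were Serp1, an ER stress-associated protein (0.916), the zinc transporter Slc39a7 (0.877), the ER-bound transcription factor Creb3l2 (0.858), Arf4 (0.852) and Armcx2 (0.851).

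Group means show what this likeness consists of. P4hb averaged 606 FPKM in WT, 526 in ITD, 273 in IRE1_KO and 253 in IRE1_KO_ITD GMP, the order seen for Tmem39a. Isg20 averaged 14.8, 9.82, 8.36 and 2.66 FPKM in the same groups, the order seen for Nucb2. Serp1 averaged 206, 242, 108 and 136 FPKM, which like Itm2c is higher in ITD than in WT and higher in IRE1_KO_ITD than in IRE1_KO. None of the 5 genes nearest to each member was among the 5 nearest in LSK alone, whereas 3 of those of Nucb2 and 2 each of those of Itm2c and Tmem39a were among the 5 nearest in GMP alone. Between the 3 genes r was 0.752 for Itm2c with Tmem39a, 0.734 for Nucb2 with Tmem39a and 0.495 for Nucb2 with Itm2c. In the same order r was 0.352, 0.492 and 0.486 in LSK alone, and 0.825, 0.817 and 0.511 in GMP alone. The 3 genes were chosen for their lower level in labelled GMP. Values of r that include GMP, and the rankings built on them, therefore reuse that difference.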

How the data were processed

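The authors deposited 1 FPKM value for each gene symbol in each library. They used STAR, mm10 and Cufflinks, per the submitters' processing notes, with no version stated. The labels' protocols name a low-input SMART-Seq kit and the series design TruSeq stranded, and this conflict could not be resolved. FPKM is relative, so a change in abundant RNA shifts all other genes.

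Deposited values were analysed as log2(FPKM + 1), which understates fold changes of low genes; a gene entered a fit when 3 or more of its libraries reached 1 FPKM. limma 3.58.1 in R 4.3.3 (moderated test with a mean-variance trend, two-sided) was fitted to the 12 libraries of a population, or to all 24 for contrasts across populations. P-values were adjusted by Benjamini-Hochberg over all genes tested, with a threshold of 0.05. The procedure was tested on simulated data. Alternatives changed the pseudocount to 0.1, dropped the filter, scaled by quantiles or by median ratios, added sex (read from Xist and Y-linked genes) or the replicate number as a block, restricted the fit to the groups compared, or left out single libraries; leaving out the libraries with the 1ng tag was chosen after seeing the data.

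Named genes are the 3 genes, their paralogs, Ern1, Xbp1, the neighbouring genes, up to 3 called genes with the smallest p from each list and Ern1 comparison, and the 5 genes nearest to each of the 3 by likeness. The genes and lists were chosen with earlier results of these data known, LSK results included, so no p is printed for the 3 genes in the Ern1 contrasts in GMP or in GMP against LSK, nor for Tmem39a in the Ern1 contrasts in LSK (its interaction excepted). The p-values printed for ITD contrasts that include GMP come from libraries used in the choice and are not independent of it. Of 277 entries in the gene and marker lists, 273 matched a symbol. Tables and figures were made with Python 3.11.15, numpy 2.4.6, pandas 2.3.3 and matplotlib 3.10.9.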

Additional observations from a re-analysis of the deposited data

Results flagged for a closer look

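The test of whether the Ern1 effect on Nucb2 in LSK differs between the 2 Flt3 backgrounds gave -1.42 on the log2 scale, with Nucb2 at 18.3% of the unlabelled mean with ITD and 85.2% without it. The call held under 1 of 6 other settings (limma, adjusted p 0.0231 to 0.176) and was lost in 9 of the 12 fits that leave out a library. The non-ITD side of this difference holds the IRE1_KO libraries with the 1ng tag, and the tag and the genotype cannot be told apart. ITD LSK, the group with the higher monocyte and dendritic marker sums, is on the other side.

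The test of whether the ITD effect on Tmem39a differs between GMP and LSK gave -0.463 on the log2 scale. The call was lost in 9 of the 12 fits that leave out a library (limma, adjusted p up to 0.0953) and in the fit of only the libraries compared (0.0922). In LSK the ITD mean was 117% of the WT mean and in GMP 84.1%, and neither effect passed alone.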

How the results depend on the processing

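The lower Nucb2 with the Ern1 label in ITD LSK and on average over LSK, with ITD in GMP and with ITD in labelled LSK and GMP passed under every alternative run. The LSK average contains the ITD LSK contrast and is no separate result. The lower Nucb2 in ITD LSK ranged from -2.24 to -1.52 over the 8 other settings and from -1.92 to -1.37 when each library was left out. The causes of the changes below were not tested.

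The Nucb2 difference between Flt3 backgrounds in LSK was no longer called with no filter (-1.42), with quantile (-1.16) or median-ratio scaling (-1.31) or with sex as a covariate (-1.32). Itm2c between IRE1_KO and WT LSK was -0.13 with quantile normalization and -0.0516 with a median-ratio factor, where Tmem39a was at -0.55 and -0.40. Tmem39a with ITD in GMP passed under the same scalings at -0.34 and -0.34. Tmem39a with ITD in labelled LSK changed sign to 0.0214 (quantile), 0.0380 (median ratio) and 0.0110 (sex). Itm2c with ITD in GMP was lost with sex at 0.55, and the Tmem39a difference in ITD effect was lost in a fit of only the libraries compared at -0.46.

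Quantile and median-ratio scaling, in that order, changed the sign in IRE1_KO against WT LSK for Nucb1 (-0.0511 and -0.136), Poglut1 (-0.237 and -0.0978) and Arhgap31 (-0.0826 and -0.0391), and median-ratio scaling for Itm2b (-0.0432). In ITD LSK, quantile scaling gave 0.20 for Itm2b, -0.0127 for Poglut1 and -0.0177 for Arhgap31. In GMP, Tmem39b was at -0.0934 and -0.0616 without ITD. With ITD, Itm2b was at -0.00215 and -0.0684, and at -0.0543 with sex, where Xylt1 was at -0.0118.

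Calls over all genes moved as follows. The interaction in LSK gave 830 calls, 533 with median-ratio scaling and 82 with sex. ITD in LSK gave 2650, 1384 with sex and 1689 in a fit of only the libraries compared. ITD in GMP gave 1203, 271 with sex and 509 in the restricted fit. The ITD difference between populations gave 1674 and 908 in the restricted fit. IRE1_KO against WT GMP gave 60, 94 with median ratios and 39 with sex. IRE1_KO_ITD against ITD GMP gave 206, 130 with a pseudocount of 0.1, 15 with sex and 12 in the restricted fit.

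Scaling moved the balance of calls. Higher and lower calls, in the main fit and then with quantile and median-ratio scaling, were 2506 and 325, 1414 and 1138, 1610 and 769 for IRE1_KO against WT LSK. They were 1586 and 832, 994 and 760, 1331 and 1158 for IRE1_KO_ITD against ITD LSK, and 2966 and 757, 1903 and 2040, 2168 and 1724 for the LSK average. The interaction gave 163 and 667, 227 and 358, 193 and 340. ITD gave 1781 and 869, 1251 and 1123, 1391 and 1103 in LSK, and 829 and 374, 618 and 606, 862 and 862 in GMP. In labelled cells ITD gave 1399 and 2340, 2027 and 1875, 1680 and 2047 in LSK, and 953 and 506, 769 and 615, 712 and 732 in GMP. GMP against LSK gave 2341 and 3871, 3139 and 3089, 3382 and 3164, and IRE1_KO_ITD against ITD GMP 103 and 103, 118 and 140, 86 and 143.

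Same-numbered libraries did not deviate together within a population (correlations -0.338 to 0.103). Between LSK and GMP of a genotype they ranged from -0.1 to 0.236, and in 1 of 4 genotypes, ITD, all 3 were over 0.1 (0.105 to 0.198). With the replicate block the ITD difference between populations was -0.46 for Tmem39a (limma, adjusted p = 0.0185) and -0.92 for Nucb2 (0.0620). The Nucb2 interaction in LSK was then -1.42 and lost its call (limma, adjusted p = 0.0614), no other call on the 3 genes changed, and the counts of calls were 783 for ITD in GMP, 35 for IRE1_KO against WT GMP and 62 for IRE1_KO_ITD against ITD GMP.

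Leaving out each library gave -1.744 to -1.193 for the Nucb2 interaction, -0.3387 to 0.212 for Nucb2 with ITD in LSK and -1.24 to -0.6892 for its ITD difference between populations. Itm2c ranged from -0.5671 to -0.2686 with the label in ITD LSK, -0.6869 to -0.3884 in the interaction (passing without ITD LSK replicate 1), 0.208 to 0.5066 with ITD in LSK and 0.4919 to 0.6293 in GMP. Tmem39a ranged from -0.08055 to 0.05954 and -0.05093 to 0.01384 with ITD in labelled LSK and GMP, from -0.5442 to -0.3432 in the ITD difference and from -0.891 to -0.69 with the label in ITD GMP. With the label in non-ITD LSK, Nucb1 ranged from -0.05784 to 0.1572, Itm2a from -0.2254 to 0.04586, Pik3c2a from -0.1753 to 0.04095, Poglut1 from -4.271e-05 to 0.1118 and Arhgap31 from -0.005116 to 0.1512. In ITD LSK, Itm2b ranged from -0.1508 to 0.009909, Pik3c2a from -0.2233 to 0.06795 and Arhgap31 from -0.08492 to 0.2616, and Itm2a from 0.2078 to 0.7175, passing without ITD LSK replicate 1. In non-ITD GMP, Tmem39b ranged from -0.05808 to 0.08416 and Poglut1 from -0.1397 to 0.07527. In ITD GMP, Itm2b ranged from -0.1383 to 0.1, Tmem39b from -0.08403 to 0.3944, Xylt1 from -0.1851 to 0.304 and Cab39 from -0.5278 to 0.06765. Calls ranged from 1177 to 2342 for IRE1_KO_ITD against ITD LSK, 343 to 1549 for the interaction, 1282 to 2599 and 384 to 1609 for ITD in LSK and GMP, 708 to 1176 for ITD in labelled GMP, 791 to 1849 for the ITD difference, 27 to 45 for IRE1_KO against WT GMP and 13 to 759 for IRE1_KO_ITD against ITD GMP.

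Of the 5 genes nearest by likeness, 2 were shared for Nucb2 with a pseudocount of 0.1, and 3 each for Itm2c and Tmem39a with quantile scaling. In LSK alone 0 were shared for each, and in GMP alone 3 for Nucb2 and 2 each for Itm2c and Tmem39a. Leaving out each library, 3 to 5 were shared for Nucb2 and for Tmem39a. With 3 libraries a group and unknown depth, differences of the size of the intervals given cannot be resolved.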
